A study of Mus musculus with 9 samples.

Results

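Here 2 small molecules, 6877002 and 6860766, were set against each other in mouse macrophages activated through CD40. The 3 arrays labelled with 6877002 were tested against the 3 labelled with 6860766, which made 6 of the 9 arrays of the series, and the 3 vehicle arrays (CTRL) were used to say which compound had moved away from vehicle. In all 3 groups the cells were bone marrow-derived macrophages of C57Bl/6 mice, grown with 15% of medium conditioned by L929 cells, a fibroblast line that secretes the macrophage growth factor M-CSF. They were kept for 1 h with 6877002, with 6860766 or with vehicle, and every culture then received FGK45, an antibody that switches CD40 on, at 25 ug/ml for 8 h. Times were thus matched, the labels give no dose of either compound, and each value below belongs to antibody-treated cells. Each group holds mice numbered 1 to 3, and the labels do not say whether a number is the same animal in different groups, so arrays were tested as unpaired. Beyond these numbers nothing says that cultures were separate, and the p-values measure the spread between these samples.

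CD40, a relative of the TNF receptors, has no enzyme activity of its own and passes its signal on through TRAF adaptor proteins to NF-kB and MAP kinases. Both compounds are TRAF-STOPs, a class named for blocking the contact between CD40 and TRAF6, and they are known here by their numbers alone. Activated macrophages also make type I interferon, which acts back on the same cells through its receptor and switches on the interferon-stimulated genes, a set of antiviral enzymes, GTPases and regulators. The aryl hydrocarbon receptor is a transcription factor that many small aromatic molecules activate, and the repressor Ahrr is one of its own target genes.

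RNA was measured on Illumina mouse BeadChips, where labelled cRNA binds probes on beads and brightness gives the level. All values are the authors' normalised log2 values, so a difference of 1 is a 2-fold change in signal, and a level is compared only within a probe. Between 15335 and 15926 of 45281 probes were detected on the 6 compound arrays, whose median raw intensity was 109 to 113. The number of arrays limits the precision. Of 24 macrophage identity genes 22 were detected on at least 3 arrays, with a summed linear level of 146279 to 150332 in 6877002 cells and 148339 to 149705 in 6860766 cells. Among genes of other cell types, the T and NK, dendritic, fibroblast, mast and erythroid lists each had at most 2 detected genes, with Cd3e, Flt3, Col1a1 and Cpa3 not detected. The B cell list had 4 of 11 and the neutrophil list 7 of 12, and no gene of these 7 lists passed the test between the compounds. Without 6860766 replicate 3, an array described below, Prf1 of the T and NK list (0.38) and Pf4 of the erythroid and megakaryocyte list (0.24) were higher with 6877002, and their part in the other results was not tested. In bulk RNA, fewer cells of a type and less RNA per cell cannot be told apart.

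The slides were not balanced over the compounds. Slide 1 carried replicates 1 and 2 of 6860766, and slide 4 carried replicate 3 of 6877002. Slide 3 carried replicates 1 and 2 of 6877002 and replicate 3 of 6860766. Of the vehicle arrays, replicate 1 lay on slide 1, replicate 2 on slide 2 and replicate 3 on slide 4. Slide 3 held none of them. On the first principal component over the 9 arrays (28.6% of the variance) the 6877002 arrays lay at -13.3, -12.8 and -9.7, and the 6860766 arrays at 13.8, 12 and -4.4. Vehicle replicates 1, 2 and 3 lay at 8.3, 7.4 and -1.3. Every array of slides 1 and 2 thus had a positive value and every array of slides 3 and 4 a negative one. Whether this component follows slide or compound was not tested. On this first component replicate 3 of 6860766 stood apart from its group, on the side of its slide mates. On the second it lay with its group (-11.1, against -8.5 and -7.6 for replicates 1 and 2), and on the third, at -13.5, it was far from its slide mates at 3.4 and 5.6. Results are given with and without it where it matters. Within slides 3 and 4 the comparison rests on 3 arrays of 6877002 and this 1 array of 6860766, which was assumed to vary like the others.

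The compounds left different transcript profiles, and most differences ran one way. Interferon-stimulated genes, a group of receptors, Serpinb2 and Ahrr were higher with 6877002 than with 6860766, whereas the smaller set that was lower included genes of mitosis. Of 11406 features, meaning genes by their brightest detected probe plus detected probes without a gene name, 484 differed (4.24%), 367 higher with 6877002 (3.22%) and 117 lower (1.03%), by limma's moderated test at a Benjamini-Hochberg adjusted p under 0.05. Differences over 1 log2 unit were seen in 36 of them, all higher with 6877002. Before adjustment 1914 features had p under 0.05. The median difference over all features was -0.02. In all 484 the arrays of the compounds did not overlap, as was the case in 21% of all features (9.19% higher, 11.8% lower). Single arrays moved these counts. Without 6860766 replicate 3 there were 1342 differences (790 higher, 6.93%, and 552 lower, 4.84%). Without 6877002 replicate 1, 6877002 replicate 2 or 6860766 replicate 2 there were 275, 273 and 289. All 484 kept their direction within slides 3 and 4. This was fixed in advance, because their arrays did not overlap and some of the same arrays are compared there. The background there was 2.35% higher and 0.421% lower.

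**Figure D1:**
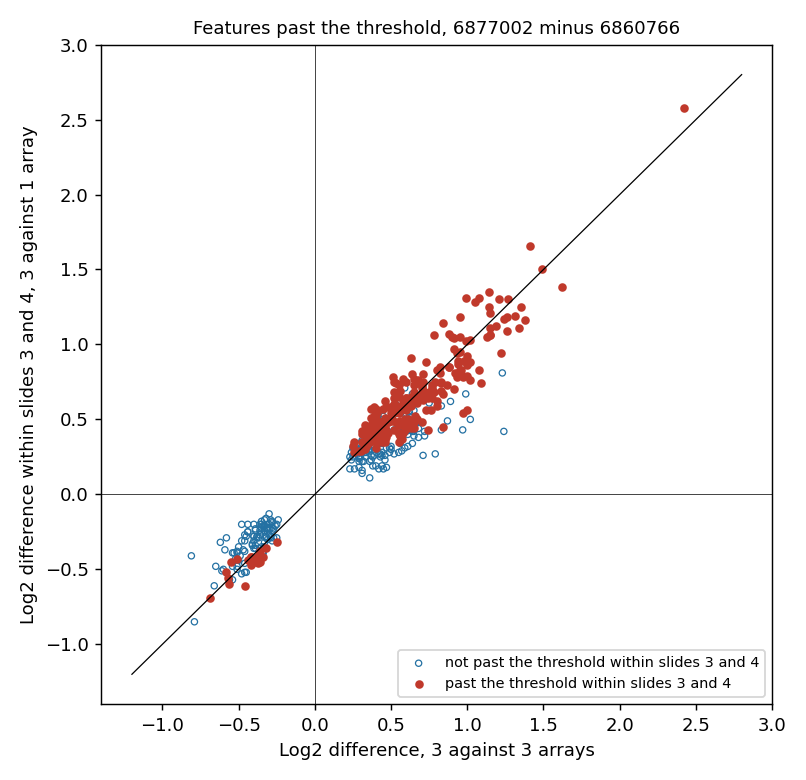
Each point is 1 of the 484 features past the threshold, with its log2 difference (6877002 minus 6860766) over 3 against 3 arrays on the horizontal axis and within slides 3 and 4, 3 arrays against 1, on the vertical axis. The line marks equal values. Filled points passed within these slides too. No point changes sign, which was fixed in advance because the arrays of the compounds did not overlap in any of the 484.

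Against vehicle the 367 higher features were of several kinds. With 6877002 above vehicle and 6860766 not past the threshold there were 88, and with 6860766 below vehicle and 6877002 not past it there were 87. In 31 the compounds lay on opposite sides of vehicle, in 11 both lay above it, in 8 both lay below it, and in 142 neither passed against it. Of the 117 lower features, 6877002 lay below vehicle alone in 23, 6860766 lay above it alone in 29, both lay below it in 2 and neither passed in 63. The background of these tests over all features was 1.92% above and 1.07% below vehicle for 6877002, and 1.09% above and 1.79% below for 6860766. Both tests use the same vehicle arrays, none of which lay on slide 3. Without 6860766 replicate 3, features of the 367 on opposite sides of vehicle numbered 64 and those past neither test 98. With slide as a block, 68 had 6877002 above vehicle alone, 84 had 6860766 below it alone and 22 were on opposite sides.

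**Figure D2:**
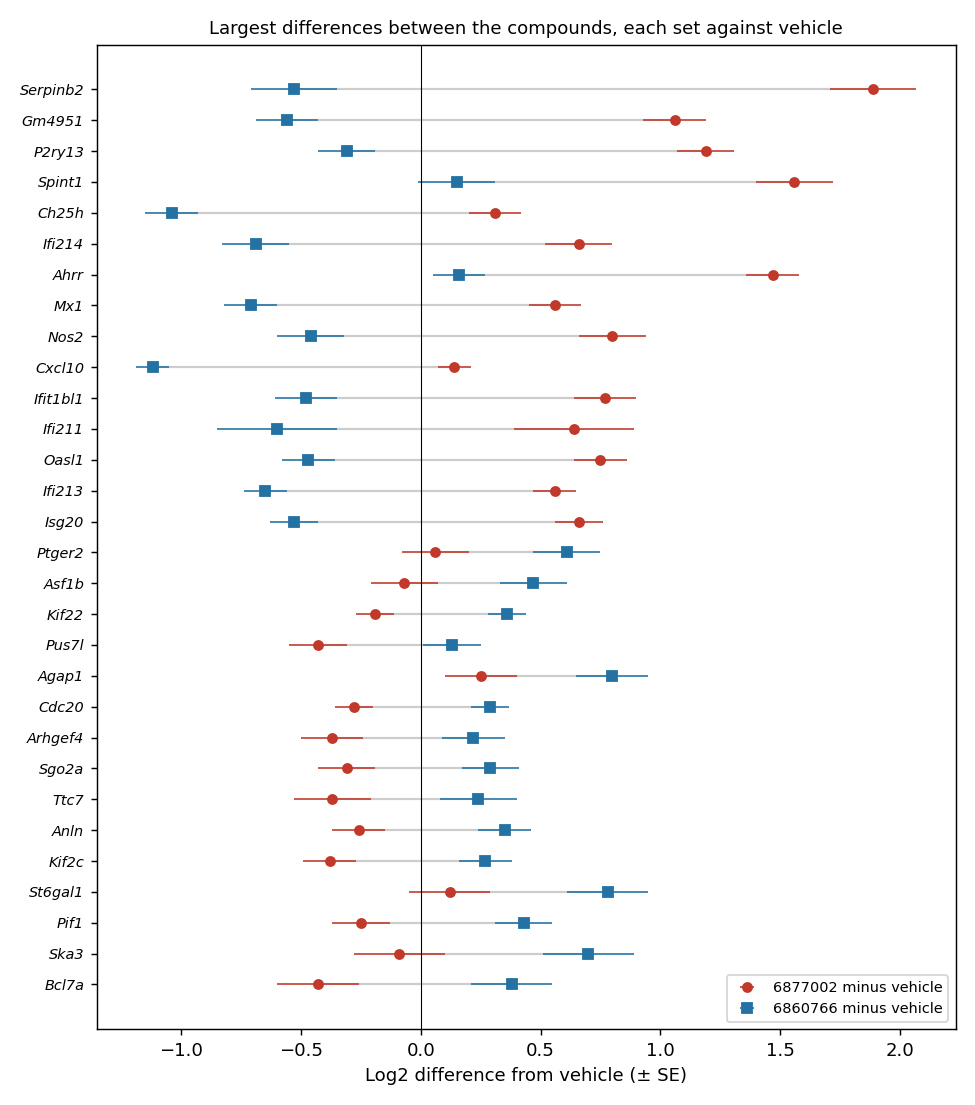
For the 15 genes with the largest positive and the 15 with the largest negative difference between the compounds, circles give 6877002 minus vehicle and squares 6860766 minus vehicle (log2, with the standard error from limma, 3 arrays per group). Serpinb2, Spint1 and Ahrr lie far right with 6877002, Ch25h and Cxcl10 far left with 6860766, and Mx1, Ifi213 and Isg20 lie on both sides of the vehicle line.

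Antiviral interferon-stimulated genes gave more calls than any other list. Of 43 tested, 38 were higher with 6877002 and 0 lower, and all 43 differences were positive, from 0.15 for Ifitm3 to 1.27 for Mx1, with a median of 0.65. Their median difference from vehicle was 0.26 with 6877002 and -0.36 with 6860766. Array by array, it lay 0.29, 0.28 and 0.22 above the vehicle mean with 6877002, and at -0.48, -0.41 and -0.25 with 6860766, against -0.07, 0.05 and 0.00 on the vehicle arrays. The compound arrays thus did not overlap, and 6860766 replicate 3 was the nearest of its group to vehicle. Without that array 42 of the 43 were higher, and within slides 3 and 4 the median was 0.48 and 32 of the 38 passed.

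Mx1, a dynamin-like GTPase that blocks influenza and related viruses, had levels of 9.23, 9.15 and 8.93 with 6877002, 7.76, 7.94 and 7.81 with 6860766, and 8.26, 8.72 and 8.66 with vehicle. The 3 groups did not overlap, and the compounds differed by 1.27 ± 0.09 (SE, n = 3 arrays each, limma adjusted p = 2.41e-06). Isg20, an RNA exonuclease, had levels of 8.38, 8.21 and 8.14 with 6877002, 7.05, 6.98 and 7.12 with 6860766, and 7.60, 7.56 and 7.58 with vehicle. It too separated all 3 groups, with a difference of 1.19 ± 0.10 (limma adjusted p = 4.4e-06). Oasl1, which restrains translation of Irf7 mRNA, differed by 1.22 ± 0.11, and Ifit1bl1, of the IFIT family, by 1.24 ± 0.11. In these 4 genes 6877002 lay above vehicle and 6860766 below it, both past the threshold. Slfn1, of the Schlafen family, differed by 1.15 ± 0.12 and passed against vehicle with 6860766 (-0.82 ± 0.14). Mx2 (1.13), Cmpk2 (1.08), Ifit2 (1.00), Ifit3 (0.88), Isg15 (0.84) and Usp18 (0.83) were also higher with 6877002. The 5 that did not pass were Ifih1, Parp9, Bst2, Ifi27l2a and Ifitm3, with differences of 0.65, 0.45, 0.41, 0.20 and 0.15.

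The interferon-inducible GTPases, which act on the membranes around intracellular microbes, followed the same order. Of 13 tested, 11 were higher with 6877002 and 0 lower, with a median of 0.67. Ifi47 is also on the antiviral list, so the lists share a call. Igtp had levels of 11.48, 11.37 and 11.46 with 6877002, 10.40, 10.30 and 10.55 with 6860766, and 11.07, 11.19 and 11.15 with vehicle, again 3 separate groups, and differed by 1.02 ± 0.07 (limma adjusted p = 2.13e-06). Irgm2 differed by 0.78 ± 0.08, Gm12250 by 1.02 ± 0.10 and Ifi47 by 0.76 ± 0.09. For Irgm2 and Gm12250 the compound past the threshold against vehicle was 6860766 (-0.57 and -0.70), whereas for Ifi47 it was 6877002 (0.49 ± 0.10). Gbp10, Gbp7, Gbp3, Gbp5 and Gbp2 were higher by 0.68, 0.64, 0.55, 0.55 and 0.29. Tgtp1 (0.54) and Irgm1 (0.24) did not pass. Another probe of Gm4951, the gene with the largest difference on this list (1.62), gave 0.29 and did not pass.

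A list of the PYHIN family, DNA-binding proteins encoded side by side on chromosome 1 and known from Aim2 as sensors of DNA, was drawn up after the values had been seen. Of its 8 tested genes 7 were higher with 6877002, with a median of 0.90, and of 0.59 within slides 3 and 4, where 6 of the 7 passed. Ifi213 had levels of 9.36, 9.21 and 9.17 with 6877002, 7.97, 8.20 and 7.94 with 6860766, and 8.57, 8.76 and 8.73 with vehicle, and no group overlapped another. Its difference was 1.21 ± 0.09 and a second probe gave 1.31. Ifi214 differed by 1.34 ± 0.15, Ifi204 by 1.00 ± 0.15 (0.56 within slides 3 and 4), Ifi205 by 0.80 ± 0.09, Mndal by 0.65 and Ifi207 by 0.55, and Aim2 did not pass (0.20). Ifi211 differed by 1.24 ± 0.25, but its 6860766 levels were 5.77, 6.15 and 7.18, and within slides 3 and 4 the difference was 0.42 and did not pass. Members of this family are similar in sequence, so their probes may share signal, which was not tested. Ifi204, Ifi205 and Ifi211 are also on the antiviral list, so their calls count in both lists.

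**Figure D3:**
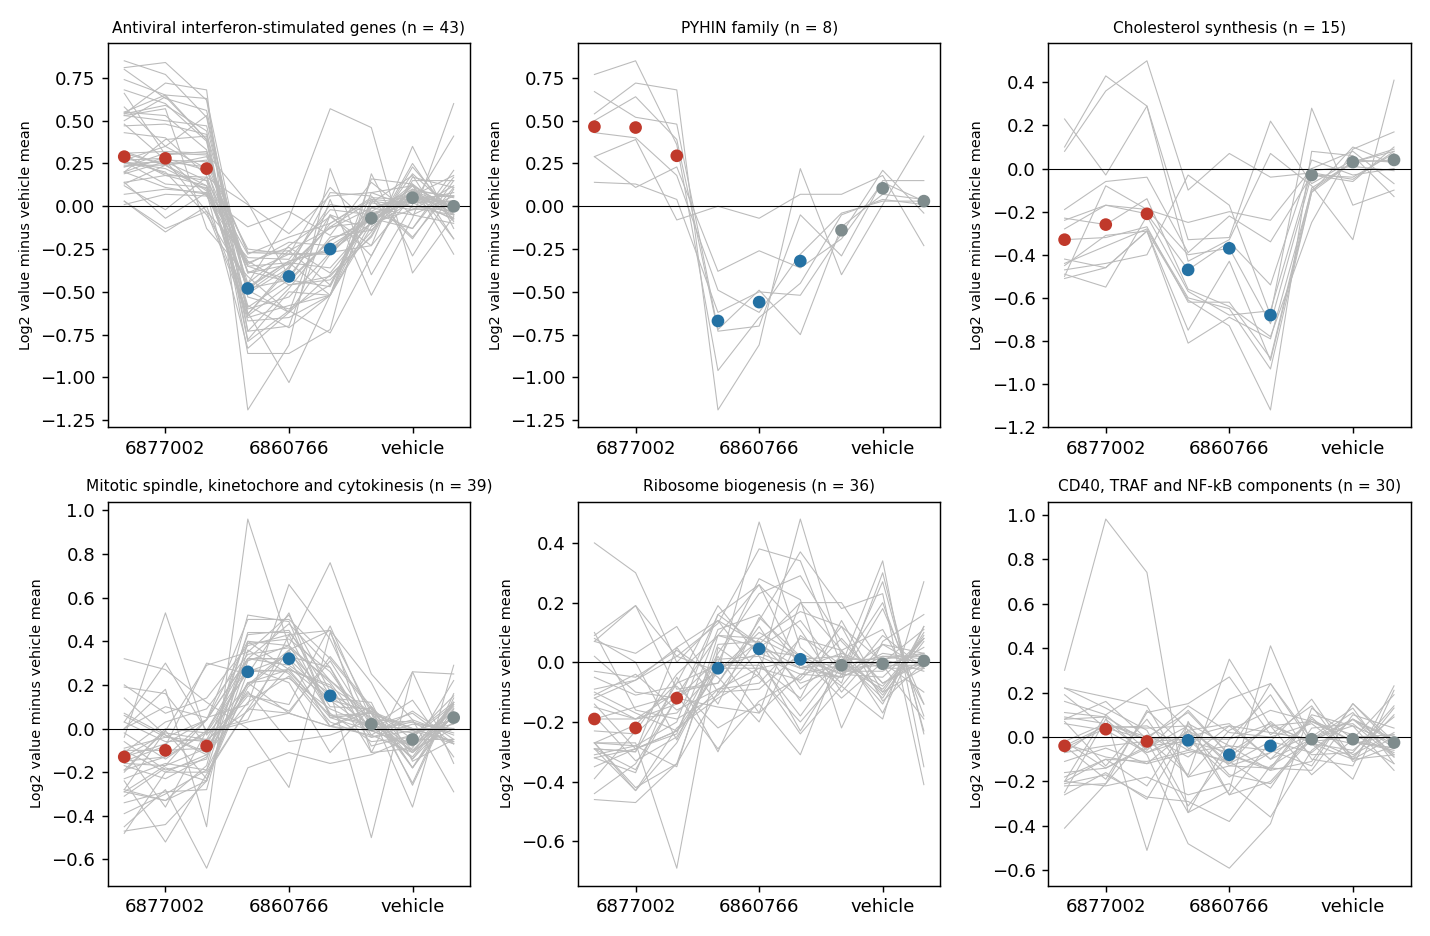
Each grey line is 1 gene and each coloured point the median of a list on 1 array, as log2 value minus the vehicle mean, with the 3 arrays of 6877002 on the left, of 6860766 in the middle and of vehicle on the right. Lines join the values of a gene and the order of arrays within a group has no meaning. Antiviral and PYHIN medians lie above 0 with 6877002 and below it with 6860766, cholesterol synthesis medians lie below 0 on all 6 compound arrays, and the CD40, TRAF and NF-kB medians stay between -0.08 and 0.04.

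Regulators of the interferon response were split. Of 29 genes for interferons, their receptors, JAK and STAT proteins, IRFs and SOCS proteins, 10 were higher with 6877002 and 0 lower, and the median was 0.11. Irf7, the IRF that amplifies type I interferon, had levels of 9.63, 9.63 and 9.53 with 6877002, 8.52, 8.51 and 8.74 with 6860766, and 9.15, 9.10 and 9.31 with vehicle. All 3 groups were separate, and the difference was 1.00 ± 0.08 (limma adjusted p = 3.97e-06). Batf2 (0.94 ± 0.08), a leucine-zipper partner of IRF1, was also past the threshold on both sides of vehicle. Socs1, an inhibitor of JAK kinases, had levels of 7.33, 6.93 and 7.21 with 6877002, 6.24, 6.33 and 6.19 with 6860766, and 7.35, 7.04 and 6.82 with vehicle, so that 6877002 overlapped vehicle and 6860766 lay below both. Irf1 behaved the other way round, at 13.46, 13.44 and 13.50 with 6877002, 12.93, 13.09 and 13.03 with 6860766, and 12.86, 13.01 and 13.06 with vehicle. Its difference was 0.45 ± 0.06, and all 4 of its other probes passed (0.50 to 0.61). Stat2 (0.73 ± 0.08), Irf8 (0.40), Jak2 (0.38), Ifnar2 (0.37) and Irf2 (0.33) completed the calls together with Ifnb1, and 6 of the 10 passed within slides 3 and 4. Ifnb1, which encodes interferon beta, had levels of 5.40, 5.51 and 5.37 with 6877002, 4.64, 4.95 and 4.76 with 6860766, and 4.86, 5.08 and 4.72 with vehicle. It was detected on 3 of 3, 1 of 3 and 1 of 3 arrays of these groups and did not pass when some single arrays were left out or within slides 3 and 4. Irf9 (0.13), Irf3 (-0.02), Socs3 (-0.07) and Batf3 (-0.47) did not pass.

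Secreted factors of the same response were higher with 6877002 too. Cxcl10, the chemokine that draws CXCR3-bearing T cells, had levels of 12.91, 12.99 and 12.96 with 6877002, 11.67, 11.64 and 11.77 with 6860766, and 12.72, 12.95 and 12.78 with vehicle. Levels with 6877002 and vehicle overlapped, those with 6860766 were lower than all others, and a second probe gave a still larger difference (1.79 against 1.26 ± 0.06). Il15, a growth factor for NK and memory T cells, had levels of 11.50, 11.42 and 11.51 with 6877002, 10.36, 10.60 and 10.70 with 6860766, and 10.99, 11.20 and 11.04 with vehicle, 3 separate groups with a difference of 0.93 ± 0.08. Its presenting receptor chain Il15ra had levels of 7.31, 7.30 and 7.27 with 6877002, 6.11, 6.41 and 6.49 with 6860766, and 6.08, 6.36 and 6.43 with vehicle, so that only 6877002 stood apart from vehicle. Of 4 other probes of Il15ra, with differences of 0.38 to 0.97, 1 passed. Il27 was higher by 0.80 ± 0.12, Tnfsf10 (TRAIL, a death ligand) by 1.00 ± 0.16, Ccl8 by 0.75 ± 0.13 and Ccl12 by 0.41 ± 0.08. Cxcl9, a second CXCR3 ligand, differed by 0.66 ± 0.16, with 6877002 at -0.04 ± 0.17 and 6860766 at -0.70 ± 0.17 from vehicle, and did not pass within slides 3 and 4. Ccl8 did not pass there either (0.61, limma adjusted p = 0.0679), nor with slide as a fixed block in the fit of 9 arrays, but it did with slide as a random block.

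Promoter windows of 5 genes of this group are shown as examples that hold the motif searched. Of these genes, Cxcl10 and Socs1 passed against vehicle with 6860766 alone and Igtp, Ifi213 and Ifi214 with both compounds. RefSeq windows of 300 bases (GRCm38.p6, 250 before to 50 after the start, 5′ to 3′ on the strand of the gene) were searched on both strands for the interferon-stimulated response element, written here as GAAA, then NN for any pair of bases, then GAAA. Capitals mark the matches.
Cxcl10, chr5:92348840-92349139, minus strand: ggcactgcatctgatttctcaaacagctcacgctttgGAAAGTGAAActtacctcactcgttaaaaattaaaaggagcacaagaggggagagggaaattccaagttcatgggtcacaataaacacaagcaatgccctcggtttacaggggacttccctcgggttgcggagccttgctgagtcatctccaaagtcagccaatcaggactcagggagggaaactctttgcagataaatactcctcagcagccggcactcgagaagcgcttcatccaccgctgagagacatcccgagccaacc
Socs1, chr16:10785487-10785786, minus strand: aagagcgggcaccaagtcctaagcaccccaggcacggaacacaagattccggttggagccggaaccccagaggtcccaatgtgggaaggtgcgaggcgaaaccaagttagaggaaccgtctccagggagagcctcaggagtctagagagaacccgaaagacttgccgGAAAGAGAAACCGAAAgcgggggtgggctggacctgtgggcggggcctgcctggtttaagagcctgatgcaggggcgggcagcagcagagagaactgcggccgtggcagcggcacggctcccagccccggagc
Igtp, chr11:58199306-58199605, plus strand: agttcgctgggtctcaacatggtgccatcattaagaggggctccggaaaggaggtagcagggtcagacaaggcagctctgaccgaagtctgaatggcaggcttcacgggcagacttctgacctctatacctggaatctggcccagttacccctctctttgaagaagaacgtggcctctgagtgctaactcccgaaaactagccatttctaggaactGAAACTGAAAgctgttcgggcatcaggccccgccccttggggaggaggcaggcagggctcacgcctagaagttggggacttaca
Ifi213, chr1:173599223-173599522, minus strand: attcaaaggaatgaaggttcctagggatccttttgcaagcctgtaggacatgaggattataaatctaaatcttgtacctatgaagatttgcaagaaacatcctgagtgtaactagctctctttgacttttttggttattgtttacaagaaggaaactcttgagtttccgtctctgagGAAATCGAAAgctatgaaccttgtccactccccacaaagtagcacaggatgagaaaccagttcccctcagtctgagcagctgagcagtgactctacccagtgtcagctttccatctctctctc
Ifi214, chr1:173535908-173536207, minus strand: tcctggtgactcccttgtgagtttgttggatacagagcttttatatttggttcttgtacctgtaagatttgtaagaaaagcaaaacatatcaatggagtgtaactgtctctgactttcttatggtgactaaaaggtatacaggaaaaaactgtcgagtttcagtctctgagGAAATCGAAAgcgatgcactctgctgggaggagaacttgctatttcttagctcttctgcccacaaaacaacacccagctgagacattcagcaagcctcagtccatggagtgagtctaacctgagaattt
The match lies 213 bases before the start in Cxcl10, 34 in Igtp, 73 in Ifi213 and 79 in Ifi214, and Socs1 holds 2 matches that overlap, 83 and 77 bases before it. Ifi213 and Ifi214 carry the same letters, GAAATCGAAA. The first windows of Oasl1, Isg20, Slfn1, Irf7 and Ifi47 hold 0 matches. This motif occurred in 18 of 73 windows (24.7%) of genes that were higher with 6860766 below vehicle alone and in 10 of 26 (38.5%) of genes with the compounds on opposite sides. It occurred in 3 of 88 (3.41%) where 6877002 lay above vehicle alone and in 2.86% of the windows of genes that were lower. All tested genes had it in 3.34% and all 32851 windows of the table in 3.44%. A match is a string of letters and not a bound site, and no p is attached to these shares.

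A separate set of genes was higher with 6877002 above vehicle and 6860766 not past the threshold against it. Serpinb2, which encodes plasminogen activator inhibitor 2, showed the largest difference of all, with levels of 8.20, 8.64 and 7.95 with 6877002, 6.13, 5.73 and 5.68 with 6860766, and 6.56, 6.54 and 6.02 with vehicle. The 6877002 arrays lay above every other array, and the difference of 2.42 ± 0.17 is a 5.33-fold higher signal (limma adjusted p = 1.45e-06). The repressor Ahrr had levels of 8.52, 8.65 and 8.38 with 6877002, 7.22, 7.07 and 7.33 with 6860766, and 7.18, 6.93 and 7.04 with vehicle. Here 6860766 and vehicle overlapped, and the compounds differed by 1.31 ± 0.10. Of 7 tested genes on the aryl hydrocarbon receptor list, 3 were higher with 6877002 (Serpinb2, Ahrr and the quinone reductase Nqo1, 0.59 ± 0.13), and the 4 that did not pass were Ugt1a6a (0.43), Lpcat2 (0.08), Arnt (-0.03) and Slc7a11 (-0.28). Cyp1a1, Cyp1b1, Tiparp and Ahr itself were not detected on 3 arrays. Nqo1 is also a target of NRF2, the oxidative stress factor, and of 26 NRF2 targets 2 were higher (Nqo1 and Keap1) and 2 lower (Gclm, -0.34 ± 0.06, and Mt1, -0.25 ± 0.07). Within slides 3 and 4, Gclm alone of these 4 passed, and Nqo1 (0.71), Keap1 (0.22) and Mt1 (-0.20) did not.

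The promoter window of Ahrr is shown because the core of the aryl hydrocarbon response element, GCGTG, occurs in it 3 times on the strand shown, 107, 82 and 27 bases before the start. Capitals mark the core.
Ahrr, chr13:74292282-74292581, minus strand: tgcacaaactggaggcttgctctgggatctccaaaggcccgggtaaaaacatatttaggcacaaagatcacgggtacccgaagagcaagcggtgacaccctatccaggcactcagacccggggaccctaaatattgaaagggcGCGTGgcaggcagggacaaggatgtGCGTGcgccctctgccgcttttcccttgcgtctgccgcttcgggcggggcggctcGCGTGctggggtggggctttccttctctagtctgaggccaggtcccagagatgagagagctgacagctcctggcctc
The core is short and common: on either strand it was found in 45.5% of the windows of genes with 6877002 above vehicle alone, in 49.8% of those of all tested genes and in 32.4% of all windows in the table. The first RefSeq window of Serpinb2 has 0 matches, and this says no more than that these letters are not in that window.

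Several cell-surface receptors were among the genes with 6877002 above vehicle. P2ry14, a receptor for UDP-glucose, had levels of 11.61, 11.53 and 11.46 with 6877002, 10.33, 10.35 and 10.47 with 6860766, and 10.26, 10.42 and 10.42 with vehicle. Both of its other probes passed (0.57 and 1.02), and 6860766 lay at 0.02 ± 0.07 from vehicle. P2ry13, a receptor for ADP, differed by 1.49 ± 0.10 and Lpar6, a receptor for lysophosphatidic acid, by 0.91 ± 0.08. On the list of 20 chemokine and nucleotide receptors and regulators of their signals 5 were higher. The other two were Rgs1, a regulator that shortens G protein signals, and Ccrl2, a chemerin-binding receptor (0.44 ± 0.08), which passed neither against vehicle nor within slides 3 and 4. Gpr183 (-0.03), Ptafr (-0.02) and Cxcr4 (-0.09) did not pass. Spint1, an inhibitor of membrane serine proteases, had levels of 7.44, 7.52 and 7.35 with 6877002, 6.47, 5.84 and 5.77 with 6860766, and 5.95, 5.74 and 5.93 with vehicle. Again every 6877002 array lay above all others, with a difference of 1.41 ± 0.16. Mxd1, which pairs with MAX against MYC, differed by 1.14 ± 0.10 and lay 1.07 ± 0.11 above vehicle with 6877002 and -0.07 ± 0.11 from it with 6860766. Within slides 3 and 4, Serpinb2 (2.58), P2ry13 (1.5), Spint1 (1.66), Mxd1 (1.25), Ahrr (1.19), P2ry14 (1.06) and Lpar6 (1.04) all passed.

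**Figure D4:**
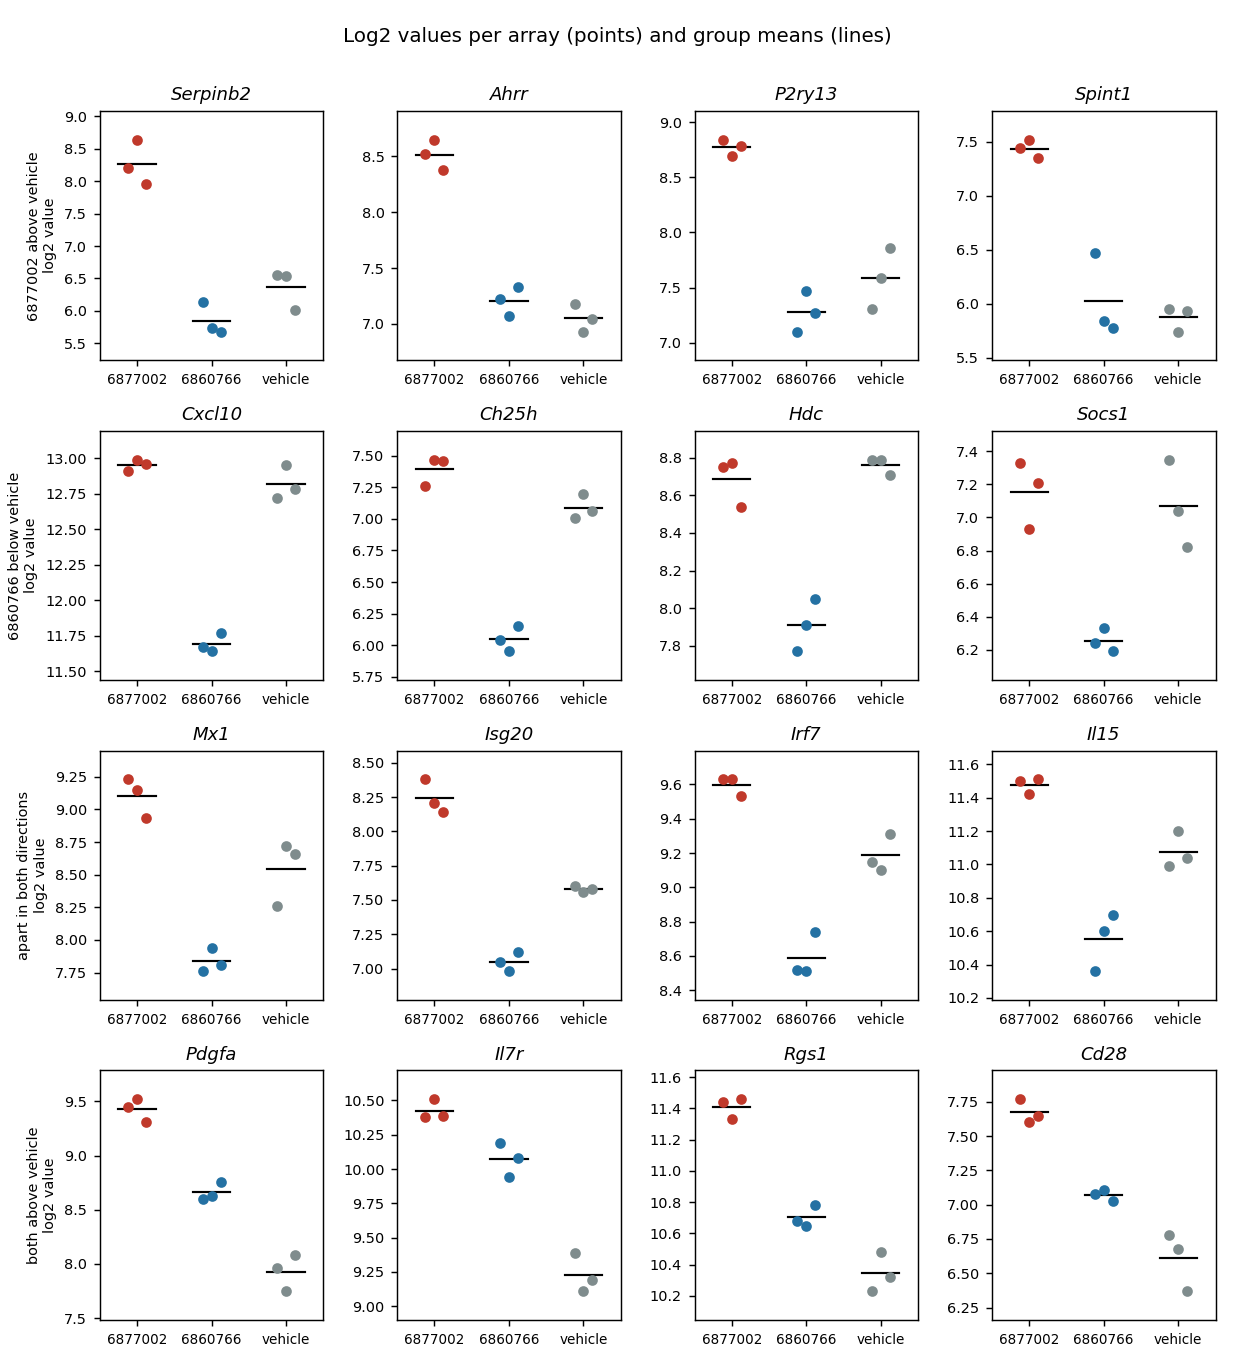
Points are the log2 values of single arrays and lines the group means of 3 arrays, with 6877002 on the left, 6860766 in the middle and vehicle on the right of each panel. Vertical axes differ between panels and do not start at 0. The panels from top to bottom show genes with 6877002 above vehicle, with 6860766 below vehicle, with the compounds apart in both directions, and with both above vehicle. In every panel the 2 compounds do not overlap.

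Other genes were higher with 6860766 below vehicle. Ch25h, which makes 25-hydroxycholesterol, an antiviral oxysterol, had levels of 7.26, 7.47 and 7.46 with 6877002, 6.04, 5.95 and 6.15 with 6860766, and 7.01, 7.2 and 7.06 with vehicle. No group overlapped another, and the fall with 6860766 (-1.04 ± 0.11) passed where the value with 6877002 (0.31 ± 0.11) did not. Hdc, which makes histamine, had levels of 8.75, 8.77 and 8.54 with 6877002, 7.77, 7.91 and 8.05 with 6860766, and 8.79, 8.79 and 8.71 with vehicle. In Hdc the 6877002 arrays lay close to vehicle (-0.08 ± 0.09) and the 6860766 arrays below all others (-0.85 ± 0.09), though a second probe gave a difference of 0.40 and did not pass. Gch1, the first enzyme on the way to tetrahydrobiopterin, a cofactor of nitric oxide synthase, differed by 0.37 ± 0.06 and lay below vehicle with 6860766 (-0.29 ± 0.06). Nos2, the inducible synthase itself, had levels of 6.87, 6.97 and 7.13 with 6877002, 5.56, 5.73 and 5.90 with 6860766, and 6.21, 6.36 and 6.00 with vehicle. Its groups were separate, but against vehicle only the rise with 6877002 passed (0.80 ± 0.14, and -0.46 ± 0.14 with 6860766, limma adjusted p = 0.0899). Nos2, Hdc and Gch1 were the 3 of 17 genes of the nitric oxide, oxidase, prostaglandin and histamine list that passed, and Ptgs2 (0.90) did not. Il18 (0.39 ± 0.08) and the vasoconstrictor peptide Edn1 (0.56 ± 0.11) were also higher with 6877002, with 6860766 below vehicle, and neither passed within slides 3 and 4 (0.31 and 0.34).

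Some genes outside the interferon lists also lay on opposite sides of vehicle. Fcgr1, the high-affinity IgG receptor, had levels of 9.61, 9.99 and 9.99 with 6877002, 8.98, 8.85 and 8.91 with 6860766, and 9.34, 9.46 and 9.60 with vehicle. It was the 1 gene of 22 macrophage identity genes that passed (0.95 ± 0.10). Without 6860766 replicate 3, 4 of the 22 passed, Fcgr1, Adgre1, Mertk and Ctsd. Ccnd2, the cyclin D of the G1 phase, had levels of 8.53, 8.59 and 8.49 with 6877002, 7.65, 7.57 and 7.60 with 6860766, and 8.09, 8.12 and 8.18 with vehicle, 3 tight and separate groups with a difference of 0.93 ± 0.08. Hspa1a, an inducible HSP70, differed by 0.98 ± 0.08. It was the 1 of 17 heat shock genes that passed, another of its probes gave 0.06, and Hspa1b, a near-identical copy, had 0.38 and did not pass, so this call is uncertain.

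Some antigen presentation genes were higher with 6877002. Of 18 class I and immunoproteasome genes, 8 were higher and 0 lower, with a median of 0.36. The transporter chain Tap1 had levels of 8.83, 8.79 and 8.79 with 6877002, 8.26, 8.18 and 8.19 with 6860766, and 8.55, 8.57 and 8.56 with vehicle. Its 3 groups were separate and the compounds 0.59 ± 0.08 apart. Nlrc5, the transactivator of class I genes, differed by 0.60 ± 0.08, and both genes passed against vehicle with 6860766 (-0.35 and -0.37) and not with 6877002 (0.24 and 0.23). Tapbpl, Tap2, Tapbp, Psmb9, Psmb8 and H2-Q7 followed at 0.47 to 0.35, and H2-K1 (0.37), H2-D1 (0.06) and B2m (-0.04) did not pass. Only 3 of the 8 passed within slides 3 and 4. Of 22 class II and co-stimulation genes 6 were higher, with a median of 0.24, and 11 without 6860766 replicate 3. Cd86, the B7 ligand of CD28, had levels of 8.68, 8.71 and 8.75 with 6877002, 7.86, 7.55 and 7.88 with 6860766, and 7.91, 8.01 and 7.98 with vehicle. The 6877002 arrays lay above all others, by 0.95 ± 0.10 against 6860766, and both other Cd86 probes passed (0.82 and 0.95). Cd74, the invariant chain of class II, differed by 0.43 ± 0.07, H2-DMa by 0.33 ± 0.08 and Slamf7 by 0.24, while Cd80 (-0.22), Cd274 (0.22) and H2-Ab1 (0.20) did not pass. H2-Aa differed by 0.49 ± 0.10, and by 0.28 within slides 3 and 4, where it did not pass.

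For a few genes both compounds moved the same way and 6877002 moved further. Pdgfa, a growth factor for mesenchymal cells, had levels of 9.45, 9.52 and 9.31 with 6877002, 8.60, 8.63 and 8.76 with 6860766, and 7.96, 7.75 and 8.08 with vehicle. The 3 groups formed steps, at 1.49 ± 0.09 and 0.73 ± 0.09 above vehicle and 0.76 ± 0.08 apart. Rgs1 had the same order, 1.06 ± 0.07 and 0.36 ± 0.07 above vehicle and 0.71 ± 0.07 apart, and so had the co-stimulatory receptor Cd28, at 1.06 ± 0.12, 0.46 ± 0.12 and 0.60 ± 0.10. Il7r, the IL-7 receptor chain, lay 1.2 ± 0.08 above vehicle with 6877002 and 0.84 ± 0.08 with 6860766. Its compounds differed by 0.36 ± 0.08, and without some single arrays this did not pass. Other probes of Il7r gave 0.01 and 0.27, neither past the threshold. Csf2rb, the shared chain of the GM-CSF and IL-3 receptors, and Csf2rb2, an IL-3 receptor chain, differed by 0.50 ± 0.10 and 0.47 ± 0.09. Against vehicle 6860766 did not pass for either (0.04 and 0.12). Csf2rb2 stood at 0.31 within slides 3 and 4 and did not pass. Other probes of Csf2rb gave 0.13 and 0.37, neither past the threshold.

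Some cholesterol synthesis genes lay below vehicle. Of 15 genes, 4 passed below vehicle with 6877002 and 9 with 6860766. Between the compounds 4 were higher with 6877002 and 11 did not pass, with a median of 0.34, and the median lay at -0.26 from vehicle with 6877002 and at -0.50 with 6860766. Fdps, which makes farnesyl diphosphate, had levels of 12.47, 12.48 and 12.53 with 6877002, 12.18, 12.18 and 11.92 with 6860766, and 12.71, 12.83 and 12.84 with vehicle. The groups were separate, with 6877002 above 6860766 and vehicle above both, and the compounds differed by 0.40 ± 0.07. Lanosterol synthase Lss (0.34 ± 0.08), Hsd17b7 (0.37 ± 0.08) and phosphomevalonate kinase Pmvk (0.45 ± 0.10) were the others, and second probes of Fdps and Lss gave -0.04 and 0.00. Within slides 3 and 4, where 6860766 is represented by its lowest array for this list (median -0.68 from vehicle, against -0.47 and -0.37), the list's median was 0.35 and all 4 passed. Fdps alone passed whichever single array was left out, and Pmvk did not pass with slide as a fixed block in the fit of 9 arrays. Scd1, a fatty acid desaturase, lay at -0.34 ± 0.08 and -0.64 ± 0.08 from vehicle and differed by 0.29 ± 0.08, which did not pass within those slides.

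**Figure D5:**
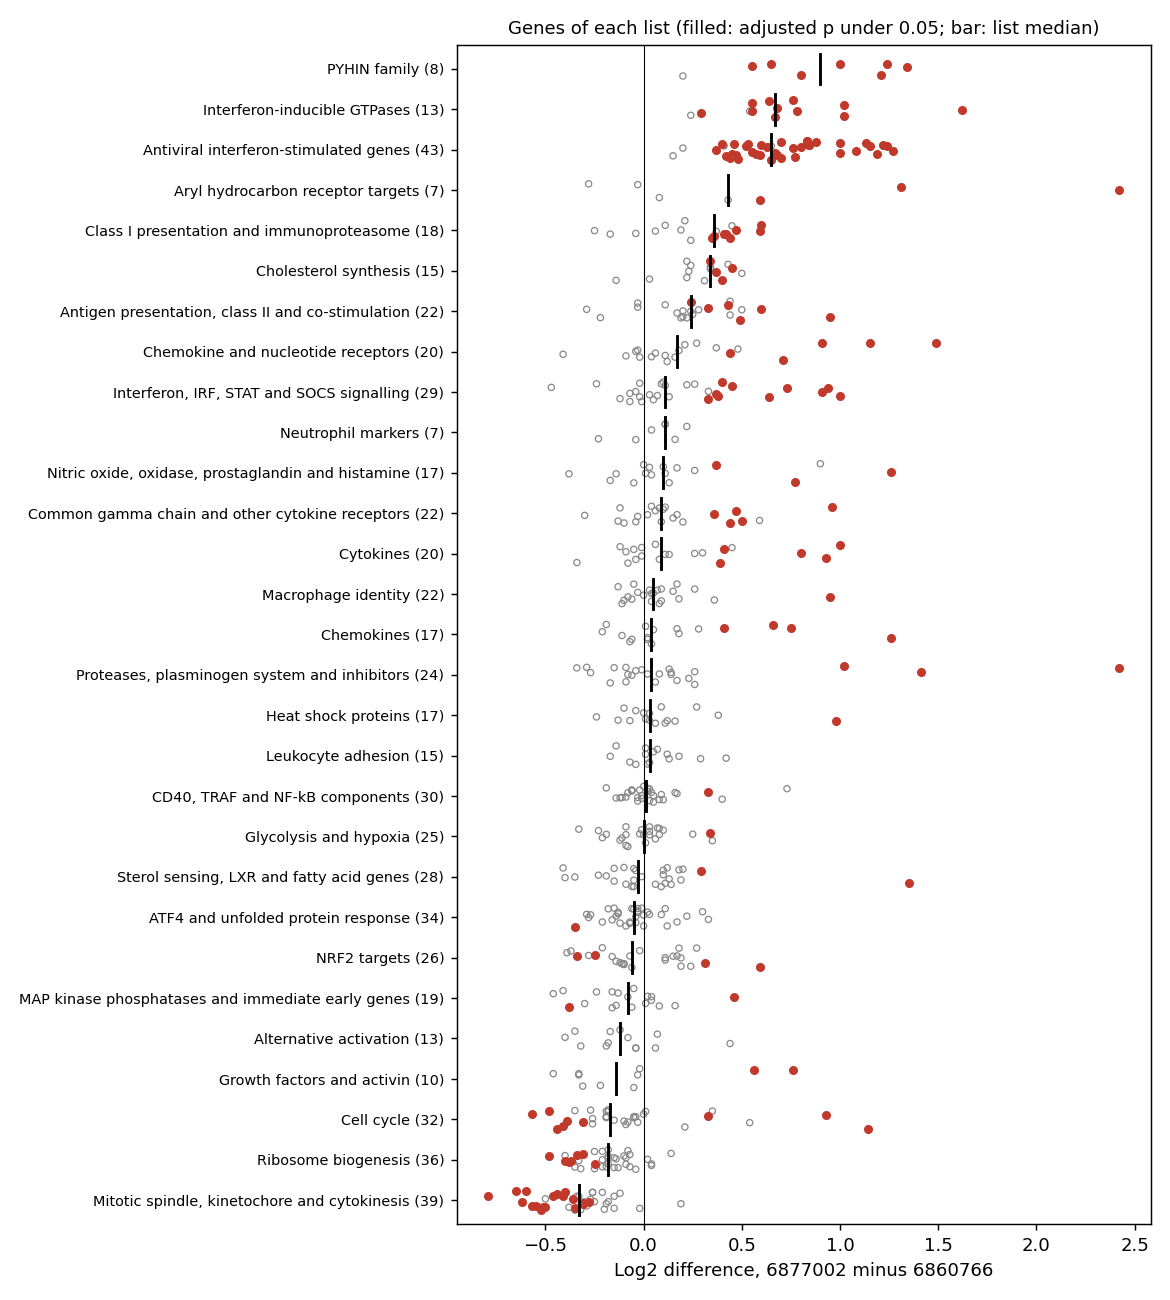
Each point is 1 gene's log2 difference, 6877002 minus 6860766, filled where limma's adjusted p is under 0.05, and each bar is the median of a list, with the number of tested genes in brackets. Antiviral, GTPase and PYHIN genes lie to the right of 0, mitotic genes to the left, and the CD40, TRAF and NF-kB list is centred on 0.01. The PYHIN, mitotic and ribosome biogenesis lists were drawn up after the values had been seen.

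Genes that were lower with 6877002 differed by less than 1 log2 unit, and a group of them acts in mitosis. On a list of 39 genes for the spindle, kinetochore and cytokinesis, drawn up after the values had been seen, 18 were lower and 0 higher. Its median was -0.33, with -0.09 from vehicle for 6877002 and 0.24 for 6860766. Cdc20, the activator of the anaphase-promoting complex, had levels of 8.55, 8.51 and 8.60 with 6877002, 9.10, 9.17 and 9.12 with 6860766, and 8.81, 8.73 and 8.96 with vehicle. Vehicle lay between 2 separate compound groups, which differed by -0.57 ± 0.07 (limma adjusted p = 0.000234), and 2 of its 3 other probes passed. The kinesins Kif22 (-0.55 ± 0.08) and Kif2c (-0.65 ± 0.11) and the cytokinesis protein Anln (-0.62 ± 0.11) were lower too. So was the cohesin protector Sgo2a (-0.60 ± 0.11). The DNA helicase Pif1, which is not on this list, was lower as well (-0.69 ± 0.11, and -0.69 within slides 3 and 4). Another probe of Pif1 gave -0.16 and did not pass. Within slides 3 and 4 the list's median was -0.29, but of the 18 only Cdc20 and Kif22 passed, and Anln stood at -0.32. On the shorter cell cycle list of 32 genes 6 were lower, among them the epigenetic regulator Uhrf1 (-0.44 ± 0.08), Top2a (-0.48 ± 0.12, and -0.20 within slides 3 and 4) and Cdk4 (-0.39), while Mxd1, Ccnd2 and the cell cycle inhibitor Cdkn1a (0.33) were higher. Another probe of Top2a gave -0.04 and did not pass. The MCM helicase genes Mcm2 to Mcm7 did not pass, with differences between -0.19 and 0.35.

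Bcl7a, which had the largest negative difference of the named genes and encodes a subunit of SWI/SNF complexes, had levels of 5.12, 5.16 and 5.09 with 6877002, 6.04, 6.22 and 5.54 with 6860766, and 5.64, 5.59 and 5.43 with vehicle. Its difference was -0.81 ± 0.17, and -0.41 without a pass within slides 3 and 4, where the lowest 6860766 array is the one compared. Ska3, a kinetochore protein, differed by -0.79 ± 0.19 and was detected on 2 of 3 arrays of 6877002. The sialyltransferase St6gal1 (-0.66 ± 0.16), the prostaglandin E2 receptor Ptger2 (-0.54 ± 0.14) and Agap1 (-0.56 ± 0.14) were lower with 6860766 above vehicle, by 0.78 ± 0.17, 0.61 ± 0.14 and 0.80 ± 0.15. None of these 3 calls passed within slides 3 and 4 (limma adjusted p = 0.199, 0.311 and 0.166) or with slide as a fixed block in the fit of 9 arrays, and each was lost without some single arrays, whereas all 3 passed with slide as a random block. Of 36 ribosome biogenesis genes, listed after the values had been seen, 7 were lower and 0 higher. Ppan, which helps to build the large ribosomal subunit, had levels of 9.67, 9.66 and 9.79 with 6877002, 10.03, 10.04 and 10.16 with 6860766, and 10.10, 10.10 and 10.18 with vehicle, so that 6860766 overlapped vehicle and 6877002 lay below both (-0.37 ± 0.07 between the compounds). Another probe of Ppan gave -0.17 and did not pass. The list's median was -0.18. Of the 7 calls 2 passed within slides 3 and 4 and 3 whichever single array was left out, and 13 genes were lower without 6860766 replicate 3.

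The receptor pathway that both compounds are named for gave 1 call between them, a share near that over all features. Of 34 listed genes for CD40, TRAF and NF-kB components 30 were tested. Traf2, Traf3, Chuk and Nfkb1 had no probe past the detection filter. Differences ran from -0.19 to 0.73, with a median of 0.01. Of the 30, 1 was higher with 6877002 (3.33%, against 3.22% of all features) and 0 lower (against 1.03%). That gene was Birc2, a ubiquitin ligase held by TRAF2 (0.33 ± 0.07), and it did not pass within slides 3 and 4 (0.32). Cd40 had levels of 13.07, 13.05 and 13.09 with 6877002, 13.01, 13.06 and 12.91 with 6860766, and 13.21, 13.35 and 13.25 with vehicle. The compounds overlapped, with a difference of 0.08 and a 95% interval of -0.05 to 0.21, and both lay under the vehicle arrays, past the threshold with 6860766 (-0.28 ± 0.06) and not with 6877002 (-0.20 ± 0.06). The intervals were -0.21 to 0.10 for Traf6, -0.07 to 0.26 for Traf1, -0.19 to 0.15 for Rela and -0.27 to 0.04 for Nfkbia, which encodes the NF-kB inhibitor. A p that misses the threshold does not show that the compounds act alike, and each interval bounds the difference of 1 probe only. Other probes of Cd40 gave 0.16 to 0.35 and another of Nfkbia gave 0.19, none past the threshold. Other probes of Traf1 and Traf6 lay within the intervals given. Without 6860766 replicate 3, 4 of the 30 were higher, Birc2, Birc3 (0.96), Rel (0.45) and Nfkb2 (0.32).

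Most cytokine and chemokine genes did not pass, though the share that did was above that over all features. Il1b, the fever-inducing cytokine, had levels of 14.15, 14.20 and 14.10 with 6877002, 14.08, 14.21 and 14.20 with 6860766, and 14.10, 14.08 and 14.23 with vehicle, 3 overlapping groups. The interval of its difference was -0.15 to 0.12, against -0.05 to 0.27 for Tnf, -0.21 to 0.08 for Ccl4, -0.08 to 0.19 for Ccl3 and -0.11 to 0.16 for Ccl5. Another probe of Ccl4 gave 0.20 and one of Tnf -0.05, and neither passed. Group means of these genes lay between 13.6 and 14.25, near 14.39, the highest value on every array. Whether differences are compressed there was not tested. Of 20 cytokines 5 were higher (Il15, Il27, Tnfsf10, Il18 and the IL-1 antagonist Il1rn, 0.41 ± 0.10), and of 17 chemokines 4 (Cxcl10, Ccl8, Cxcl9 and Ccl12). These shares, 25% and 23.5%, compare with 3.22% over all features. Il6 depended on 1 array, with levels of 9.22, 9.24 and 8.56 with 6877002, 8.5, 8.2 and 9.41 with 6860766, and 9.24, 9.43 and 9.40 with vehicle. Its difference was 0.30 ± 0.24, and without 6860766 replicate 3 it was 0.66 and passed (limma adjusted p = 0.00521), whereas within slides 3 and 4 it turned to -0.40 and did not pass (adjusted p = 0.349). Csf2, which encodes GM-CSF, had levels of 6.68, 6.80 and 6.69 with 6877002, 6.83, 7.02 and 7.34 with 6860766, and 7.84, 7.81 and 7.91 with vehicle. Its compound arrays did not overlap, yet the difference of -0.34 ± 0.13 did not pass (limma adjusted p = 0.189), and within slides 3 and 4 it was -0.62 (adjusted p = 0.0295). The membrane-anchored chemokine Cx3cl1 and the chemokine Ccl17 lay below vehicle with both compounds, and their intervals between the compounds were -0.10 to 0.44 and -0.25 to 0.33. Chac1 and Trib3, targets of the stress factor ATF4, lay above vehicle with both, with intervals of -0.06 to 0.31 and -0.18 to 0.17.

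Other metabolic and stress lists gave few differences. Over all features 3.22% were higher and 1.03% lower, so few calls are expected in lists of this size. Of 34 genes of the ATF4 and unfolded protein response 0 were higher and 1 was lower (2.94%), Pdia4 (-0.35 ± 0.08). Of 25 glycolysis and hypoxia genes 1 was higher (4%), P4ha1 (0.34 ± 0.09). Neither passed within slides 3 and 4. No gene of 13 for alternative activation or of 15 for leukocyte adhesion passed, and 28 sterol-sensing, LXR and fatty acid genes gave Ch25h and Scd1. Among 19 MAP kinase phosphatases and immediate early genes, the mRNA-destabilising protein Zfp36 was higher (0.46 ± 0.06) and the AP-1 subunit Fosl2 lower (-0.38 ± 0.10), the second of them without a pass within slides 3 and 4.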

How the data were processed

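RNA of 9 macrophage cultures was hybridised to Illumina BeadChips, 3 per group. Per the file headers, 1 deposited table holds the intensity of each probe and its detection p-value on each array. The intensity values came from GenomeStudio 2011.1, per the submitters' processing notes. Log2 values, as normalised between arrays by the authors, make up the other table. The submitters' processing notes name R 3.1.3 and limma 3.22.7 for this, and no function. They differed by at most 0.0161 from limma's neqc (normexp background from the detection p-values, offset 16, quantile normalisation) run here on the intensities, so low values are compressed by that offset.

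The filter kept 16415 of 45281 probes, those detected (p under 0.05) on 3 or more of 9 arrays. By the platform annotation 34885 probes have 1 symbol, 18 have several and 10378 have none. The probe with the highest mean over 9 arrays stood for each of 9081 genes, and 2325 probes without a single symbol made up the 11406 features. In R 4.3.3 with limma 3.58.1, lmFit and eBayes with trend tested 6877002 minus 6860766 on the 6 compound arrays, two-sided, with Benjamini-Hochberg adjustment over all features. Each compound was set against vehicle in a fit of all 9 arrays. An exact permutation of 3 against 3 arrays cannot go below p = 0.1. The code was tested on simulated data. Intervals are at the 95% level.

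Named genes were the 15 largest differences in each direction whose arrays did not overlap, up to 5 called genes per list, and a chosen set of CD40, cytokine and macrophage genes. Other list members are named with their values to complete a list. Birc3, Rel, Mertk, Ctsd, Prf1 and Pf4 were singled out after their values were seen. The members, lists and rule were chosen with earlier results of these data known, and 3 lists after the values had been seen. The list entry Mnda matched Ifi211 by synonym. Slide, mouse number, normalisation, probe filter, spread model and each array were varied. One pair of compounds was compared. RefSeq promoter windows (GRCm38.p6) were matched by symbol.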

Additional observations from a re-analysis of the deposited data

How the results depend on the processing

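The count of 484 differences (367 higher, 117 lower) moved by more than 1.5 times under these settings, and the cause was not tested unless fewer arrays are its construction. With slide as a fixed block on the 6 compound arrays 252 passed (219 higher, 33 lower), with slides 1 and 2 against slides 3 and 4 as the block 296 (43 lower), and within slides 3 and 4 alone 316 (48 lower). Scaling arrays to a common median gave 319 (229 higher), a spread without trend 218 (191 higher, 27 lower) and array weights 1066 (615 higher, 451 lower). Leaving out 1 array gave 273 to 1342 (234 to 790 higher, 32 to 552 lower). Leaving out both compound arrays of mouse number 1 gave 213 (200 higher, 13 lower), of number 2 153 (149 higher, 4 lower) and of number 3 1239 (727 higher, 512 lower). Of the 484, 229 passed without each array in turn (205 higher, 24 lower). Against vehicle, 341 features passed with 6877002, and 650 without 6860766 replicate 3, which enters that test through the shared spread only. This alternative was chosen after seeing the data.

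Same-numbered compound arrays had deviations from their group means that correlated at 0.03 (number 1), 0.00 (number 2) and -0.15 (number 3). Differently numbered compound arrays gave -0.12 to 0.11. With 3 arrays per group on unbalanced slides, these values cannot show whether a number is the same animal. With mouse number as a replicate block 399 passed (321 higher, 78 lower) on 6 arrays and 497 (373 higher, 124 lower) on 9. Over all settings and named genes no call reversed, 497 gene and setting pairs lost a call, and 16 gained one. In settings that only drop arrays a reversal could not occur, because the compound arrays of called genes did not overlap.

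Among 178 called genes with other detected probes, 159 had every other probe on the same side and 79 another probe past the threshold. Slides and compounds are only partly separable. Slide 3 alone held arrays of both compounds, and its only array of 6860766 was replicate 3. Dim probes near the offset have compressed differences.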
